A study of Mus musculus with 42 samples.

Results

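The comparison described here set skeletal muscle of mice given SHENQI compound against skeletal muscle of mice with the same diabetic macroangiopathy that did not receive it. Its members were chosen by title alone: 3 SHENQI muscle arrays and 3 macroangiopathy muscle arrays, 6 of the 42 one-color expression arrays in the series, and all genes measured on them were considered. Both groups were male KK/Ay mice, a strain that carries the yellow agouti allele and develops obesity and type 2 diabetes spontaneously, and both were fed a high-fat diet and given L-NAME, which blocks nitric oxide synthases, in the drinking water to bring on macrovascular disease. The macroangiopathy group received saline by gavage and the SHENQI group received SHENQI compound by gavage, a decoction of several medicinal plants that include ginseng, astragalus, rehmannia, yam, hawthorn, Salvia miltiorrhiza and rhubarb. The series as a whole holds 7 groups (healthy, diabetic, macroangiopathy, SHENQI, yangyinyiqi, huoxue and rosiglitazone) in muscle and aorta, with 3 arrays of each. The labels do not say which muscle was taken. The untreated counterpart of the SHENQI group is itself a model induced by high-fat diet and L-NAME in a diabetic strain.

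Skeletal muscle is the main site of insulin-stimulated glucose uptake, and its fibres are of slow, oxidative and fast, glycolytic kinds that use different isoforms of myosin, troponin and calcium pumps. Muscle mass depends on the balance between protein synthesis, which insulin and insulin-like growth factor promote, and protein breakdown through ubiquitin ligases that are induced in fasting, by glucocorticoids and in diabetes. Muscle also runs a circadian clock whose output changes with feeding and with the hour of collection.

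All 9 skeletal muscle markers (Acta1, Ckm, Myh4, Ttn, Neb, Des, Mb, Ryr1 and Mylpf) were well above background on all 6 arrays, and nonagouti (a), which the yellow agouti allele switches on outside the skin, lay between 8.99 and 9.86 in the SHENQI group and between 9.03 and 9.76 in the macroangiopathy group against 6.70 to 6.74 in healthy muscle (log2 intensity). Between 54.12% and 64.56% of the 41174 probes were well above background on each array, a share that stands in for depth. Of the 6 arrays, SHENQI 2 and 3 and macroangiopathy 1 and 2 shared 1 slide, on which position and group cannot be told apart, while SHENQI 1 and macroangiopathy 3 each lay on another slide. The first principal component of the 6 arrays held 42.2% of the variance and set macroangiopathy 2 at one end, and the second, with 26.5%, set SHENQI 3 apart.

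Transcripts of skin and fat differed between arrays of the same group more than between the groups. Krt5, a keratin of the basal epidermis, read 11.42, 13.40 and 6.97 on macroangiopathy 1, 2 and 3 and 7.42, 7.12 and 9.11 on SHENQI 1, 2 and 3, and the summed level of the 4 skin keratins ranged from 9.28 to 14.69 in the macroangiopathy group and from 9.26 to 10.32 in the SHENQI group, with all 4 keratins well above background on all 6 arrays. Adipoq, the adiponectin gene of fat cells, read 10.65, 11.36 and 13.58 in the SHENQI group and 10.16, 12.21 and 10.66 in the macroangiopathy group. The sum of the 7 white adipocyte markers ranged from 14.30 to 16.73 and from 14.19 to 15.37. Keratins were thus highest on macroangiopathy 1 and 2, and fat markers on SHENQI 3 and macroangiopathy 2, and the groups overlapped for both. In bulk muscle, fewer cells of a type and less RNA per cell cannot be told apart. The B cell genes Cd79b and Ms4a1 also stood high on SHENQI 3, where Cd79b read 9.69 against 7.34 to 7.58 on the other 5 arrays, although only 3 of the 6 lymphocyte markers were well above background on all 6 arrays.

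**Figure D1:**
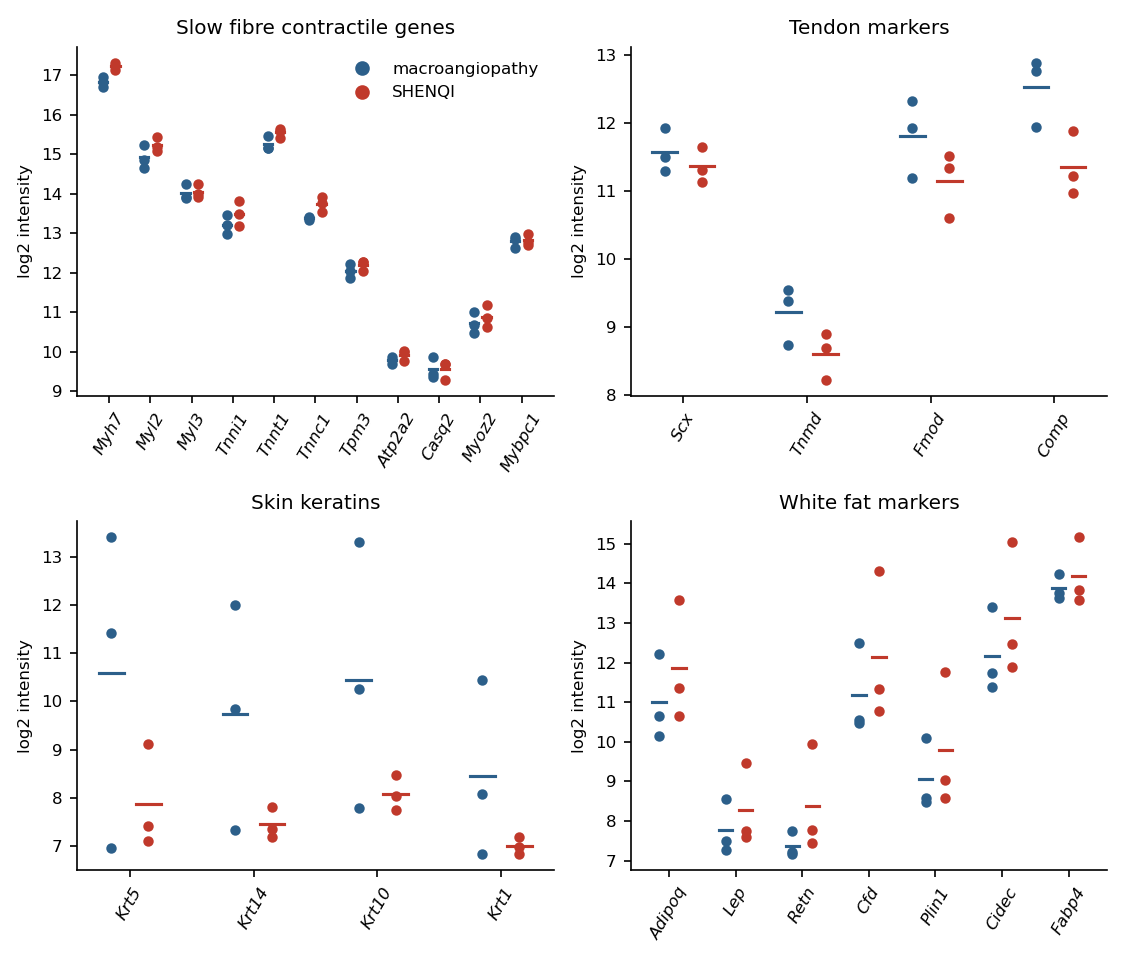
Log2 intensity (vertical axes) of slow fibre contractile genes, tendon markers, skin keratins and white fat markers (horizontal axes) on each of the 3 macroangiopathy arrays (blue points) and 3 SHENQI arrays (red points), with short lines at the group means. The slow fibre genes sit a little higher in the SHENQI group. Comp is lower there without overlap, whereas macroangiopathy 2 lies within the SHENQI range for Tnmd, Fmod and Scx. The keratins are spread by 2 macroangiopathy arrays and the fat markers by 1 SHENQI array.

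Across the 13506 genes tested, 419 had an unadjusted limma p below 0.05 (3.10% of genes), 210 of them higher and 209 lower in SHENQI muscle, and limma called none after Benjamini-Hochberg adjustment, where the smallest adjusted p was 0.9991. A share of 5% would be expected from a threshold of 0.05 without any difference, so the differences below describe these 6 arrays. In what follows, a gene is said to pass when its unadjusted limma p was below 0.05, and no named gene passed after adjustment. Passing members of a list or marker set are to be read against 3.10% of all genes, 1.55% higher and 1.55% lower. The shares of single lists were not tested. The number at the unadjusted threshold was 656 without SHENQI replicate 1 and 373 without SHENQI replicate 2, the highest and the lowest when 1 array was left out. Within the shared slide it was 597 (4.42%), of which 209 were higher. The 2 groups did not overlap for 1035 genes (7.66%), of which 528 (3.91%) were higher and 507 (3.75%) lower in SHENQI. The median standard error of a log2 difference was 0.071. Of 31 genes that were more than 1 log2 unit lower in SHENQI muscle, 30 were highest on macroangiopathy 2 and 2 passed the unadjusted threshold, Tmem45a and Comp. Of 4 genes more than 1 unit higher, 1 passed it, Cish.

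**Figure D2:**
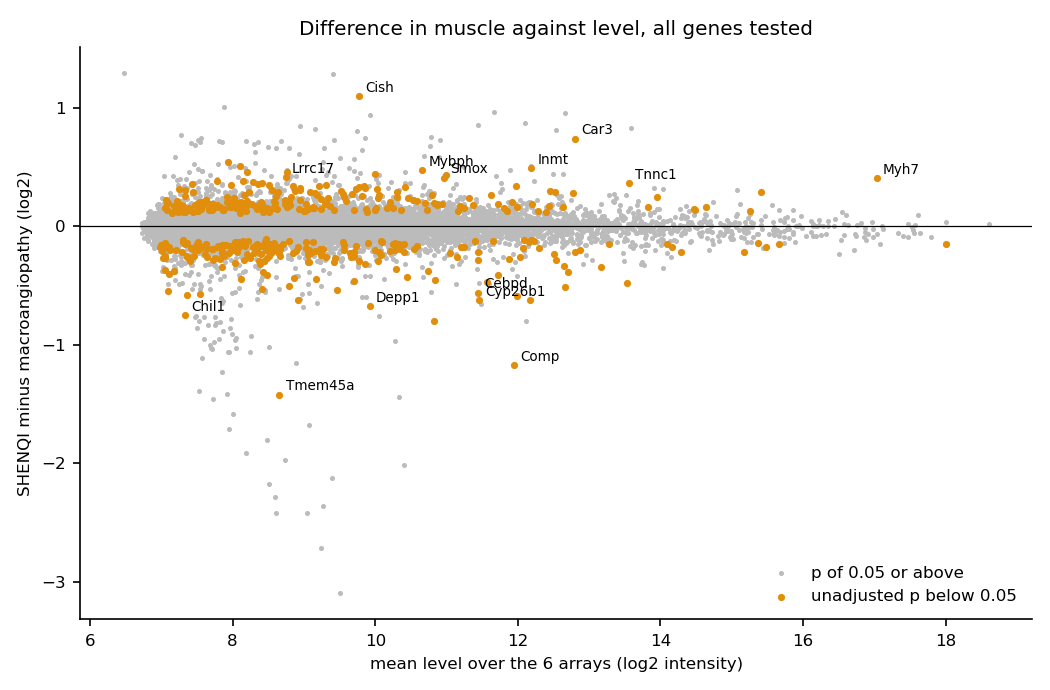
Difference between the group means (vertical axis, SHENQI minus macroangiopathy, log2) against the mean level over the 6 arrays (horizontal axis, log2 intensity) for the 13506 genes tested, with the 419 of unadjusted p below 0.05 in orange and some of the named genes labelled. The downward tail between levels of about 7 and 11 is mostly grey, and Comp, Cish, Car3 and Myh7 stand out among the orange points.

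The genes of the slow contractile apparatus were the list, of 19 examined, whose members leaned most to one side. Of 12 slow fibre genes, 11 were tested, 3 passed the unadjusted threshold and were higher in SHENQI muscle (27.3%, against 1.55% of all genes higher and 3.10% either way), none passed it in the other direction, and all 11 differences were above 0, with a median of 0.16 against 0.005 over all genes tested. Without macroangiopathy replicate 3, the array of its group with low keratins, that median was 0.31. Within the slide that both groups shared, which lacks that array, it was 0.16. The mean deviation of the 11 from their own means was 0.22, 0.11 and -0.03 on SHENQI 1, 2 and 3. It was -0.15, -0.20 and 0.05 on macroangiopathy 1, 2 and 3, so that SHENQI 3 lay below macroangiopathy 3. Only SHENQI 1 and 2 lay above that array. Myh7, the heavy chain of slow myosin, read 17.32, 17.24 and 17.15 in the SHENQI group and 16.84, 16.69 and 16.96 in the macroangiopathy group (log2 intensity). All SHENQI arrays were above all macroangiopathy arrays, by 0.41 ± 0.08 (log2, SE; limma adjusted p = 0.9991), and within the shared slide the difference was 0.43. Its 2 probes share most of their target, and the cardiac paralog Myh6 is nearly identical in sequence, so the signal of the pair cannot be fully separated. Myh6 differed by 0.44 (95% interval -0.01 to 0.90) and did not pass.

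Tnnc1, the troponin C of slow and cardiac muscle, read 13.91, 13.76 and 13.55 in SHENQI muscle and 13.41, 13.39 and 13.34 in macroangiopathy muscle, again without overlap. The difference was 0.36 ± 0.09. Tnnt1, the slow isoform of troponin T, read 15.64, 15.60 and 15.42 against 15.16, 15.16 and 15.46, so that macroangiopathy 3 reached into the SHENQI range, and its difference of 0.29 ± 0.10 passed the unadjusted threshold with all arrays but not when macroangiopathy 1, macroangiopathy 2, SHENQI 1 or SHENQI 2 was left out. The regulatory light chain Myl2 (0.31, 95% interval -0.08 to 0.69) and slow troponin I, Tnni1 (0.27, -0.16 to 0.71), had values of similar size that did not pass. Sequences are shown for the slow fibre pair whose groups did not overlap, the 250 bases before the annotated start of Myh7 (the more upstream of 2 listed starts, chr14:54994627-54994876, minus strand) and of Tnnc1 (chr14:31208062-31208311, plus strand), from RefSeq on GRCm38.p6, with capitals at the muscle MCAT element CATTCC or its reverse complement.
Myh7: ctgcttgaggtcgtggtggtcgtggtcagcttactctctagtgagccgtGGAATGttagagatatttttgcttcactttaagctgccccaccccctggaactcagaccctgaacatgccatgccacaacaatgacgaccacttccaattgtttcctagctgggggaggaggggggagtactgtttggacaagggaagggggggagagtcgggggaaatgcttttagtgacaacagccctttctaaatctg
Tnnc1: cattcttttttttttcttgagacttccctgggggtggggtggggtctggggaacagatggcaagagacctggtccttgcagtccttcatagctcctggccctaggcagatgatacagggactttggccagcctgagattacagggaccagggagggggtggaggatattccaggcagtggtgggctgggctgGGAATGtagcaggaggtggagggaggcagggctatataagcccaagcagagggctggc
Each window shown held the element once on the reverse strand, its first base at position -201 from the start in Myh7 and -58 in Tnnc1. The window of the other listed Myh7 start (chr14:54994550-54994799) did not hold it. On either strand, 12.6% of the 32851 listed windows of this length held it. The match describes these letters only. The array probe for Tnnc1, whose position on mm9 (chr14:32023360-32023776) covers more bases than the probe holds, was as follows.
Tnnc1 probe: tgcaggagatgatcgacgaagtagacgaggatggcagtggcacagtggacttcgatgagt

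The fast fibre genes had no such lean. All 14 were tested, 1 passed the unadjusted threshold and was lower, 5 differences were above 0 and 9 below, and the median was -0.04. That gene was Tnni2, fast troponin I, which read 17.85, 18.02 and 17.91 in SHENQI muscle and 18.11, 18.02 and 18.11 in macroangiopathy muscle (-0.15 ± 0.06). The groups met at the value of SHENQI 2 and macroangiopathy 2. At the bright end of the scale quantile normalization gives each rank a fixed value, so arrays shared exact values for this gene, and when processed signals were used, each array set to its 75th percentile, the difference was -0.08 and did not pass. Myh4, the heavy chain of the fastest fibres and the most abundant one in most limb muscles, differed by 0.00 with a 95% interval of -0.14 to 0.13. Mybph, myosin-binding protein H, a thick filament protein, read 10.97, 10.79 and 10.91 against 10.58, 9.97 and 10.72, a difference of 0.47 ± 0.19 that was largest against macroangiopathy 2. The sum of the skeletal muscle markers, which is dominated by abundant contractile genes, lay between 19.54 and 19.57 in the SHENQI group and between 19.60 and 19.63 in the macroangiopathy group.

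Of 83 oxidative phosphorylation subunits tested, 5 passed the unadjusted threshold, all lower (6.02%, against 3.10% of all genes either way and 1.55% lower), 62 differences were below 0 and 21 above, and the median was -0.05. The mean deviation of these genes from their own means over the 6 arrays was 0.04, 0.05 and -0.01 on macroangiopathy 1, 2 and 3. It was -0.01, -0.04 and -0.02 on SHENQI 1, 2 and 3, so that macroangiopathy 3 lay within the SHENQI range. The 5 were Uqcrc1, a core subunit of complex III (-0.21 ± 0.08), Atp5d (-0.14), Atp5md (-0.14) and Atp5g1 (-0.22) of ATP synthase, and Sdhb, the iron-sulphur subunit of complex II (-0.15). For all 5 the groups did not overlap, which their passing the threshold made likely. Of the 83 tested, 8 did not overlap and were lower, against 3.75% of all genes. Uqcrc1, for example, read 14.21, 14.13 and 14.21 in SHENQI muscle against 14.41, 14.25 and 14.54, and its probes differed by -0.09 and -0.33. With macroangiopathy 1 and 2 left out, the median of the list was -0.01.

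**Figure D3:**
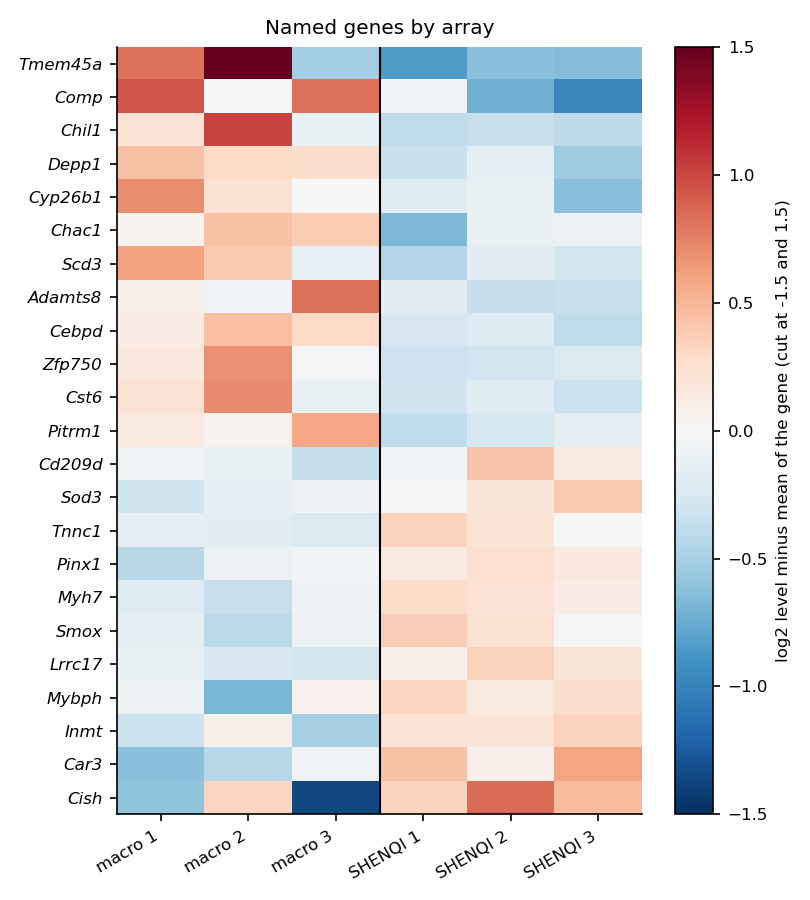
Log2 level minus the mean of each gene (color, scale limited to -1.5 and 1.5) for the genes named from the 12 largest decreases and the 12 largest increases (rows, ordered by difference) on each of the 6 arrays (columns). Tmem45a, Chil1, Zfp750 and Cst6 are highest on macroangiopathy 2, while Depp1, Cebpd and Myh7 have similar shades on all 3 arrays of a group.

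Of the 26 tested genes of muscle atrophy, autophagy and myogenic control, 1 passed and was higher and 2 passed and were lower. The share was 11.5%, against 3.10% of all genes. Of the differences, 15 were above 0 and 11 below, with a median of 0.02. Fbxo32, which encodes atrogin-1, the F-box subunit of a muscle ubiquitin ligase, read 11.38, 11.16 and 11.47 in the SHENQI group and 11.80, 11.65 and 11.95 in the macroangiopathy group. The groups did not overlap, both probes of the gene gave similar differences (-0.45 and -0.49), and the mean difference was -0.47 ± 0.11. Trim63, the other classical atrophy ligase MuRF1, read 13.20, 12.67 and 12.39 against 12.98, 13.21 and 13.03, and its difference of -0.32 (95% interval -0.80 to 0.16) did not pass. The second lower one was Cdkn1a, the cell cycle inhibitor p21, at 8.64, 8.32 and 8.66 against 8.62, 9.21 and 9.29, where macroangiopathy 1 lay inside the SHENQI range (-0.50 ± 0.19). The higher one was Igfbp5, a binding protein for insulin-like growth factors (0.20 ± 0.08).

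Depp1, a gene induced in fasting and by FOXO transcription factors, had the smallest p of all genes tested. It read 9.59, 9.78 and 9.39 in SHENQI muscle and 10.36, 10.22 and 10.18 in macroangiopathy muscle, without overlap, and the difference was -0.67 ± 0.11 (limma adjusted p = 0.9991). Cebpd, a transcription factor induced by glucocorticoids and inflammatory signals, read 11.20, 11.24 and 11.06 against 11.55, 11.89 and 11.73. The spread within each group was small beside the difference of -0.56 ± 0.10. Chac1, an enzyme that degrades glutathione and is induced by the amino acid and unfolded protein responses, read 11.32, 11.88 and 11.90 against 12.04, 12.44 and 12.37 (-0.58 ± 0.18), but differed by -0.35 within the shared slide. In the list of heat shock and endoplasmic reticulum stress genes, 23 were tested, Chac1 and Xbp1, a transcription factor of the unfolded protein response (-0.15 ± 0.05), passed and were lower, and Cryab, the small heat shock protein alpha B crystallin, passed and was higher (0.30 ± 0.10). The share that passed in this list was 13.0%, against 3.10% of all genes. Its median was -0.03, and 0.04 within the shared slide. None of the 20 immediate early genes and none of the 21 inflammatory genes tested passed, and their medians were -0.02 and 0.01.

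Cish, an inhibitor of cytokine signalling that STAT5 induces, read 10.10, 10.60 and 10.24 in SHENQI muscle and 9.16, 10.08 and 8.40 in macroangiopathy muscle. The 3 SHENQI values were close together and the 3 macroangiopathy values were spread over more than 1 log2 unit, with macroangiopathy 2 just under the SHENQI range, and the difference of 1.10 ± 0.40 (2.14-fold) was 0.69 without macroangiopathy replicate 3, when it no longer passed the unadjusted threshold. The 120 bases that end 20 bases after its annotated start (chr9:107296559-107296678, plus strand, RefSeq on GRCm38.p6) are shown because they hold 2 STAT-type elements TTCNNNGAA, in capitals.
Cish: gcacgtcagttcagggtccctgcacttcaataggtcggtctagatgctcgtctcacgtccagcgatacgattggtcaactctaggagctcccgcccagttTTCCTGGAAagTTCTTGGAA
The motif reads the same on both strands in its fixed letters, the 2 matches do not overlap, and 8.3% of the 32851 listed 300-base windows held at least 1 match while 0.457% held more than 1. Igf1, the growth factor itself, read 8.77, 8.997 and 9.06 against 8.79, 8.71 and 8.58. SHENQI 1 lay just below macroangiopathy 1, and the difference was 0.25 ± 0.09, the mean of 4 probes of which 1 showed almost no difference.

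Of the 32 insulin signalling and glucose uptake genes tested, Igf1 passed and was higher, Tbc1d1 and Gsk3a passed and were lower, and the median was 0.02. The share that passed was 9.38%, against 3.10% of all genes. Tbc1d1, a Rab GTPase-activating protein that restrains movement of glucose transporters to the membrane, read 7.79, 7.77 and 7.49 in SHENQI muscle and 7.99, 7.85 and 8.23 in macroangiopathy muscle (-0.34 ± 0.12). Gsk3a, a kinase that inhibits glycogen synthase, differed by -0.16 ± 0.07. In glycolysis and glycogen metabolism, 32 genes were tested and 2 passed: Ugp2, which makes UDP-glucose for glycogen, was lower at 12.31, 12.57 and 12.28 against 12.59, 12.62 and 12.66 (-0.23 ± 0.08), and Eno1, the widely expressed enolase, was higher (0.21 ± 0.09).

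Car3, carbonic anhydrase III, is abundant in slow fibres and in fat cells. It read 13.24, 12.88 and 13.39 in SHENQI muscle and 12.17, 12.37 and 12.74 in macroangiopathy muscle, without overlap, and the difference was 0.74 ± 0.18. Its 2 probes differed by 1.15 and 0.33. Without the fat-rich arrays, SHENQI 3 and macroangiopathy 2, it was 0.60, and without the keratin-rich macroangiopathy 1 and 2 it was 0.43 and did not pass.

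The lipid uptake and storage list holds Fabp4, Plin1 and Cidec, which are also white adipocyte markers, so the list and the markers are not independent. Its mean deviation was highest on SHENQI 3 (0.60), followed by macroangiopathy 2 (0.07). Of 24 lipid uptake and storage genes, 18 differences were above 0 and 6 below, with a median of 0.11 that was 0.24 within the shared slide, and none passed in the higher direction. Cidec, a lipid droplet protein of fat cells, read 11.90, 12.46 and 15.05 in SHENQI muscle and 11.39, 13.40 and 11.74 in macroangiopathy muscle, so the difference of 0.96 (95% interval -1.20 to 3.12) rested on SHENQI 3 and did not pass. The part of fat cell RNA in these values was not tested. Vldlr, a receptor that helps take up triglyceride-rich lipoproteins, was the list's only member to pass and was lower, at 12.25, 12.43 and 12.52 against 12.71, 12.64 and 12.68 (-0.28 ± 0.08). In fatty acid and cholesterol synthesis, Me1, malic enzyme, was the only one of 28 tested to pass (-0.42 ± 0.18), but its 2 probes differed by -0.91 and 0.06. None of the 27 fatty acid oxidation genes tested passed, and their median was -0.02, and 0.05 within the shared slide.

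Cyp26b1, which degrades retinoic acid, read 11.27, 11.34 and 10.83 in SHENQI muscle and 12.15, 11.68 and 11.47 in macroangiopathy muscle (-0.62 ± 0.21). Pitrm1, a peptidase of the mitochondrial matrix, read 8.02, 8.14 and 8.27 against 8.56, 8.46 and 8.99 (-0.52 ± 0.14). Both were lower in SHENQI muscle without overlap.

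The labels do not give the hour of collection. Of 18 clock genes tested, Per3 and Hlf passed and were higher, none passed and was lower, and the median was 0.05. The share that passed was 11.1%, against 1.55% of all genes higher and 3.10% either way. Per3, a period gene of the negative limb, read 8.19, 8.02 and 8.25 in SHENQI muscle and 7.74, 7.75 and 7.93 in macroangiopathy muscle, without overlap (0.35 ± 0.08). Hlf, an output transcription factor that binds D-box elements, read 9.65, 9.24 and 9.57 against 8.95, 9.25 and 9.21, with SHENQI 2 inside the macroangiopathy range (0.35 ± 0.13). Dbp, the other main D-box activator and a gene that the study names, read 14.28, 13.43 and 14.30 against 12.26, 13.64 and 13.63, overlapping, and did not pass (0.83 ± 0.42, 95% interval -0.19 to 1.84). Arntl, which encodes BMAL1 and peaks opposite to the period genes, read 8.08, 8.47 and 7.997 against 9.22, 8.41 and 8.52 (-0.53 ± 0.23, 95% interval -1.09 to 0.02), and did not pass. SHENQI 2 had the lowest Per3, Hlf and Dbp and the highest Arntl of its group, and macroangiopathy 1 had the lowest Per3, Hlf and Dbp and the highest Arntl of its own. The 250 bases before the Per3 start (chr4:151044666-151044915, minus strand, RefSeq on GRCm38.p6) are shown with the D-box TTATGTAA in capitals.
Per3: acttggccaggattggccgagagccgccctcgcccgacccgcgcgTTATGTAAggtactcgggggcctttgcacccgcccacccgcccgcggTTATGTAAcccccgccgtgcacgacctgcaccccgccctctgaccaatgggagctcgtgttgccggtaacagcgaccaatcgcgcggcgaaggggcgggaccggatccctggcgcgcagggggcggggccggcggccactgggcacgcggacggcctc
The element began at positions -205 and -158 from the start, 0.819% of the 32851 listed windows of this length held it on either strand, and 6 windows held it more than once.

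Comp, cartilage oligomeric matrix protein of tendon and cartilage, followed Tmem45a in size of decrease among the genes that passed. It read 11.89, 11.22 and 10.97 in SHENQI muscle and 12.88, 11.94 and 12.77 in macroangiopathy muscle. SHENQI 1 lay just under macroangiopathy 2, without overlap, and the difference was -1.17 ± 0.32 (2.25-fold, limma adjusted p = 0.9991). Tenomodulin, Tnmd, a membrane protein of tendon cells, differed by -0.62 ± 0.25 and passed, whereas fibromodulin, Fmod (-0.66, 95% interval -1.47 to 0.16), and the tendon transcription factor Scx (-0.21, -0.68 to 0.25) did not. All 4 tendon markers were well above background on all 6 arrays, and their summed level ranged from 12.57 to 13.33 in the SHENQI group and from 13.17 to 14.03 in the macroangiopathy group. The part of tendon attached to the samples was not tested. The Comp probe, on the plus strand of mm9 at chr8:72905692-72905825, also covers more bases than it holds.
Comp probe: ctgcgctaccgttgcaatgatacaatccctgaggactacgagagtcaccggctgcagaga

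Of 24 extracellular matrix genes tested, 2 passed and were lower (8.33%, against 1.55% of all genes lower and 3.10% either way). Differences below 0 numbered 19, with a median of -0.10 that was 0.03 within the shared slide. Timp1, an inhibitor of matrix metalloproteinases, read 8.23, 8.38 and 8.20 in SHENQI muscle against 8.55, 8.49 and 9.01 (-0.41 ± 0.14). Col6a1, a chain of the collagen that surrounds muscle fibres, read 10.06, 9.81 and 9.95 against 10.14, 10.06 and 10.26 (-0.22 ± 0.08). Adamts8, a secreted metalloproteinase, differed by -0.57 ± 0.22, mostly through macroangiopathy 3 at 8.37. Lrrc17, a secreted leucine-rich repeat protein, was higher at 8.84, 9.09 and 8.92 against 8.63, 8.51 and 8.47 (0.42 ± 0.08). All 3 SHENQI arrays lay above all 3 macroangiopathy arrays.

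The vessel-related genes had small differences. Differences of all 6 endothelial markers were below 0, but that of Pecam1 was -0.001 and that of Tek -0.03. Within the shared slide these were 0.02 and 0.06. Of the 6 markers, 2 passed, both lower, against 1.55% of all genes lower and 3.10% either way. They were Cdh5, which encodes VE-cadherin (-0.17 ± 0.06), and the receptor Tie1 (-0.20 ± 0.07). The summed level of the 6 lay between 11.83 and 11.96 in SHENQI muscle and between 11.98 and 12.03 in macroangiopathy muscle. Of 23 tested genes of nitric oxide, endothelin and vascular growth factor signalling, 18 differences were below 0, with a median of -0.03, and 1 passed. That was Angpt2, an antagonist ligand of the Tie2 receptor, at 8.13, 8.06 and 8.08 against 8.54, 8.36 and 8.15 (-0.26 ± 0.10). None of the 6 smooth muscle markers passed.

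Of 23 antioxidant and metallothionein genes tested, 3 passed and were higher and none was lower past the threshold. The share was 13.0%, against 1.55% of all genes higher and 3.10% either way. Still, 14 of the 23 differences were below 0, and the median was -0.07, and 0.01 within the shared slide. Sod3, extracellular superoxide dismutase, read 7.39, 7.61 and 7.82 in SHENQI muscle and 7.12, 7.28 and 7.35 in macroangiopathy muscle (0.36 ± 0.12). Nfe2l2, which encodes the regulator NRF2, differed by 0.14 ± 0.06, and Gsta4, a glutathione transferase for lipid peroxidation products, by 0.20 ± 0.08. Smox, spermine oxidase, read 11.34, 11.19 and 10.99 against 10.83, 10.56 and 10.88, without overlap (0.41 ± 0.12), although 1 of its 2 probes differed by 0.14. Inmt, a methyltransferase of indoleamines, read 12.38, 12.38 and 12.52 against 11.86, 12.27 and 11.69 (0.49 ± 0.14).

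Among immune genes, 2 of 31 interferon response genes tested passed, both lower (6.45%, against 1.55% of all genes lower and 3.10% either way). Rsad2, the antiviral protein viperin, read 7.20, 7.44 and 7.11 in SHENQI muscle against 7.61, 7.54 and 7.49 (-0.29 ± 0.09). Irf7, the transcription factor that amplifies interferon production, read 7.29, 7.23 and 7.03 against 7.40, 7.43 and 7.37 (-0.22 ± 0.08). Neither group of values overlapped the other, and the list's median was -0.01. Cd209d, a C-type lectin of the DC-SIGN family, was higher (0.35 ± 0.14), whereas none of the 6 macrophage markers passed.

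A further group of genes had its highest values on the keratin-rich arrays. Tmem45a, a membrane protein of the epidermis, had the largest decrease among genes that passed, smaller than that of the keratins, which did not pass, at 7.81, 8.02 and 8.01 in SHENQI muscle and 9.47, 10.48 and 8.14 in macroangiopathy muscle (-1.42 ± 0.53, 2.67-fold). Macroangiopathy 3, the array of that group with low keratins, lay just above the highest SHENQI array. Without the keratin-rich macroangiopathy 1 and 2 the difference was -0.19 and did not pass. Chil1, a chitinase-like protein, read 6.95, 6.98 and 6.95 against 7.54, 8.35 and 7.23 and was well above background on only 1 of the 3 SHENQI arrays. Zfp750, a regulator of epidermal differentiation, likewise above it on 1 of the 3 SHENQI arrays, read 6.78, 6.80 and 6.88 against 7.25, 7.77 and 7.07. Scd3, a fatty acid desaturase of skin, above it on 2 of 3, read 6.93, 7.20 and 7.09 against 7.96, 7.75 and 7.25. These 3 genes were tested because they were above background on every macroangiopathy array, and no size of difference is given for them. Cst6, an epidermal protease inhibitor, differed by -0.54 ± 0.19, through 1 of its 2 probes. All of these were highest on macroangiopathy 1 or 2. The part of skin RNA in them was not tested. Pinx1, an inhibitor of telomerase, completed the named increases (0.36 ± 0.10), and its 2 probes differed by 0.69 and 0.04.

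The study names 7 genes for SHENQI compound or its parts, and since it chose them with these arrays they are not independent evidence of a direction. Irf7 passed the unadjusted threshold in muscle and Dbp did not, as given above. Mcm8, a DNA helicase of recombination, differed by 0.03 with a 95% interval of -0.08 to 0.14. Cdk7, a kinase of the cell cycle and of transcription, differed by 0.04 with an interval of -0.11 to 0.18, and Nedd4l, a ubiquitin ligase that limits sodium transport, by 0.14 with an interval of -0.01 to 0.29. Per1, a period gene, differed by -0.07 (-0.73 to 0.59), and Smad7, an inhibitor of TGF-beta signalling, by -0.15 (-0.45 to 0.16). For olfactory receptors, 98 of 917 on the array were bright enough to test and 2 passed, Olfr12 and Olfr577, both lower by less than 0.15. The share was 2.04% against 3.10% of all genes.

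The other muscle groups give the levels around these differences. The diabetic arrays shared a slide with SHENQI 1 and the yangyinyiqi arrays with macroangiopathy 3, while the rest lay on other slides. Any comparison of them with macroangiopathy muscle uses the same control arrays as the comparison above, and the healthy group was C57BL/6J, so strain and disease cannot be told apart there. Mean Myh7 was 16.64 ± 0.08 (SD, n = 3) in healthy, 17.13 ± 0.06 in diabetic, 16.83 ± 0.13 in macroangiopathy and 17.24 ± 0.09 in SHENQI muscle, with 17.05 ± 0.10, 16.91 ± 0.15 and 17.08 ± 0.27 in the yangyinyiqi, huoxue and rosiglitazone groups. Every other KK/Ay group thus had a mean above that of macroangiopathy, and the diabetic, yangyinyiqi and rosiglitazone values overlapped with those of SHENQI. Mean Fbxo32 was 12.88 in healthy, 11.24 in diabetic, 11.80 in macroangiopathy and 11.33 in SHENQI muscle, with 11.48, 11.07 and 11.38 in the yangyinyiqi, huoxue and rosiglitazone groups. Mean Cebpd was 13.75 in healthy, 11.02 in diabetic, 11.72 in macroangiopathy and 11.17 in SHENQI muscle, and the SHENQI values, up to 11.24, lay below every array of the other treated groups, the lowest of which was 11.39. Mean Comp was 10.55 in healthy, 12.37 in diabetic, 12.53 in macroangiopathy and 11.36 in SHENQI muscle, and all 3 SHENQI arrays lay below all diabetic, macroangiopathy, yangyinyiqi, huoxue and rosiglitazone arrays. These orders were read from the levels and were not tested.

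**Figure D4:**
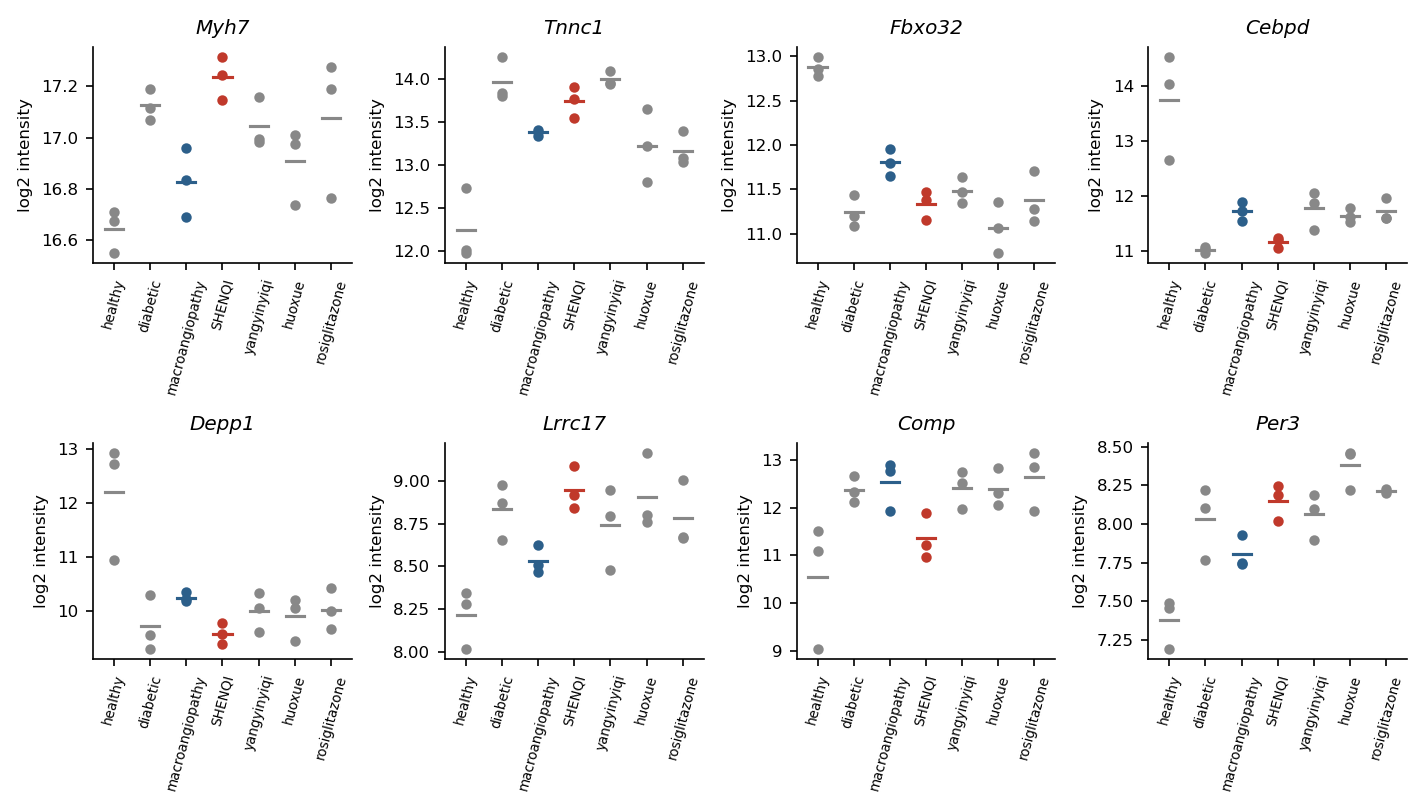
Log2 intensity (vertical axes, scaled separately for each gene and not starting at 0) of 8 genes on the 3 arrays of each of the 7 muscle groups (horizontal axes), with short lines at the group means, macroangiopathy in blue and SHENQI in red. Comp is lower in SHENQI muscle than in the other KK/Ay groups, and Fbxo32 is highest in healthy muscle.

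The same contrast in the aorta served to ask whether the muscle differences were particular to muscle. In a limma fit of 12 arrays with an interaction term, 292 of 15656 genes (1.87%) had an unadjusted p below 0.05 for the difference between the muscle and the aorta contrast and none passed after adjustment (smallest adjusted p 0.9997). In the aorta alone 295 of 15374 genes (1.92%) had an unadjusted p below 0.05 and none passed after adjustment. The largest positive interaction among genes whose groups did not overlap in either tissue was that of Smox, 0.41 in muscle and -0.10 in aorta, followed by Trmt10b and Clasrp, and the largest negative was that of Banf2, -0.20 in muscle and 0.42 in aorta, followed by Eepd1 and Nagpa. Comp differed by -1.17 in muscle and 0.02 in aorta, and Lrrc17 by 0.42 and -0.36. Irf7 differed by -0.22 and 0.07. For these 3 the interaction passed the unadjusted threshold, with a limma adjusted p of 0.9997. In contrast, Car3 differed by 0.74 and 0.80, Per3 by 0.35 and 0.29 and Tnnc1 by 0.36 and 0.47, and the interaction did not pass, which does not show that the tissues were alike. No tissue difference held after adjustment. The fit did not pair muscle and aorta arrays that may come from the same mouse.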

How the data were processed

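RNA of each sample was labeled with Cy3 and hybridized to Agilent whole mouse genome arrays. The deposited scanner files hold spot intensity values that the authors obtained with Agilent Feature Extraction 10.7, and the deposited table holds log2 values that the authors made from the same arrays. According to the study's methods, tissue came from 3 mice in each group. The labels name no animals, so p-values measure the spread between these arrays. From the median spot and background intensity, values were background-corrected (normexp, offset 0) and quantile-normalized over 42 arrays in limma 3.58.1 (R 4.3.3), irregular spots were set missing and probes of a gene were averaged. Of 41174 probes 34891 had a symbol (27479 through RefSeq accession, 5473 by symbol, 677 by synonym, 1262 by array name), giving 21159 genes. A gene was tested where every array of either group had the same probe well above background, using lmFit and eBayes (two-sided, Benjamini-Hochberg adjustment); the residual df was 4. Fold changes are on the log2 intensity scale, and the number of arrays limits precision. With 3 arrays against 3, an exact permutation test cannot go below 0.1. The members and the gene lists were chosen with earlier results of these data known. Named genes were the 12 largest differences each way among genes of unadjusted p below 0.05 without overlap (none passed adjustment), up to 4 passing members of a list, the genes the study names and cell type markers; predicted, Riken and receptor or immunoglobulin family symbols were not named, and 1 gene that the rule names is not reported here. Some genes that did not pass (Trim63, Arntl, Cidec, Myl2, Tnni1) and Sdhb, the fifth of its list, were named after their values were seen. Motif counts and figures used Python 3.11.15. Alternatives are given in the closing section.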

Additional observations from a re-analysis of the deposited data

How the results depend on the processing

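No gene of the muscle comparison passed Benjamini-Hochberg adjustment under another background correction, scaling, filter, probe rule, block or set of arrays, with 1 exception. When the keratin-rich macroangiopathy arrays 1 and 2 were left out, a setting chosen after seeing the data, the remaining 3 arrays against 1, with the lone array assumed to vary like the others, gave 4 genes with an adjusted p below 0.05 (A430106A12Rik, Gmnn, Plac9a and Ptprg), none of which passed the unadjusted threshold with all arrays. The number of genes at an unadjusted p below 0.05 was 419, and became 649 without a filter on dim probes, 150 with all 21 muscle arrays in the fit and 60 with all 42, where all groups share 1 estimate of the spread; with single arrays left out it ranged from 373 without SHENQI replicate 2 to 656 without SHENQI replicate 1. For the interaction with tissue, the 292 genes at an unadjusted p below 0.05 became 474 without a filter and 103 with all 42 arrays, and leaving out single arrays gave 194 (without macroangiopathy aorta replicate 2) to 876 (without SHENQI aorta replicate 3), with 735 without SHENQI aorta replicate 1, 774 without SHENQI aorta replicate 2 and 581 without macroangiopathy aorta replicate 1. After adjustment the interaction gave 1 gene from the deposited log2 table and 0 to 2 genes with single arrays left out. The cause of these changes was not tested.

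Same-numbered SHENQI and macroangiopathy muscle arrays did not deviate together (r of deviations 0.14, -0.29 and -0.30), and the main fit did not pair them. Any shared order of collection or processing behind the numbers was not tested. Whether same-numbered muscle and aorta arrays of a group came from the same mouse was not tested. With the replicate number as a block, set within each tissue, 282 genes had an unadjusted p below 0.05 in muscle and 251 for the interaction. None passed adjustment.

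Of the 53 named genes past the unadjusted threshold, 1 turned direction in 1 setting: Me1 was 0.058 when its brightest probe was used. Comp passed in 25 of 25 settings and Fbxo32, Lrrc17 and Pitrm1 in 24 of 25. Leaving out 1 array kept between 25 (SHENQI replicate 3) and 35 (macroangiopathy replicate 2) of the 53 past the threshold, leaving out both fat-rich arrays kept 27, both keratin-rich arrays 21, and the shared slide alone 31. The deposited log2 table kept 35. Fits over more arrays kept the fewest of the 53: 15 with all 21 muscle arrays and 4 with all 42. With slide as a fixed block over all 21 muscle arrays, 19 were kept. Within the shared slide the list medians turned sign for extracellular matrix (-0.10 to 0.03), antioxidant (-0.07 to 0.01), heat shock and endoplasmic reticulum stress (-0.03 to 0.04), fatty acid oxidation (-0.02 to 0.05) and olfactory receptor genes (-0.01 to 0.01), and that of lipid uptake and storage went from 0.11 to 0.24.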

Other observations

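Skin and fat transcripts varied between arrays in the other muscle groups as well. Krt5 read 12.06, 6.99 and 14.48 in healthy muscle, 7.06, 13.96 and 9.18 in diabetic muscle and 12.21, 7.16 and 7.09 in the yangyinyiqi group (log2 intensity), and Tmem45a was highest on the same array of each of the healthy and diabetic groups, at 10.55 and 11.50. The B cell gene Cd79b, at 9.69 on SHENQI 3, was higher only on 1 healthy array, at 11.23, among the 21 muscle arrays. Lep, the leptin gene of fat cells, read 6.93, 6.68 and 6.72 in healthy muscle and 7.59, 7.75 and 9.47 in SHENQI muscle, against 7.27, 8.54 and 7.48 in the macroangiopathy group.

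The summed level of 6 nerve and Schwann cell markers ranged from 11.18 to 11.84 in SHENQI muscle and from 11.004 to 11.69 in macroangiopathy muscle, and none passed the unadjusted threshold. Of the 4 cardiac muscle markers none passed, and their sum, 12.95 to 13.49 against 12.69 to 12.93, was mostly Myh6, whose signal cannot be fully separated from that of slow Myh7. Nppa and Tnni3 lay between 6.73 and 7.05 on all 6 arrays. Red cell markers summed to 14.62 to 15.03 against 14.89 to 15.41, and 4 of 4 tested were lower without passing. Brown adipocyte markers summed to 10.86 to 11.52 against 10.92 to 11.25.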
